A study of Mus musculus with 3 samples.

Results

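The data describe mouse embryonic fibroblasts that received siPou5f1, a pool of siRNAs against Pou5f1, and were then induced to reprogram. Pou5f1 encodes OCT4, and in this study its knockdown served as a positive control of an siRNA screen of chromatin and transcription regulators. The 3 siPou5f1 libraries are the columns of that name in the count table, 1 in each of 3 sequenced pools (replicates 1 to 3), out of 129 libraries in all. They were compared with 3 libraries of a non-targeting siRNA (nt) and with 5 mock-transfected libraries (Mock; 2 in replicate 1, 2 in replicate 2 and 1 in replicate 3). A further 95 libraries of 32 other siRNAs and 21 libraries of an untransfected time course (Day00 to Day06) entered the same fit, which used the 127 libraries that appear in both deposited tables.

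All cells were wild-type primary fibroblasts of the BL6 strain, used at passage 2 and transduced with 2 lentiviruses, tet-STEMCCA, which carries Oct4, Sox2, Klf4 and c-Myc under doxycycline control, and rtTA. The controls therefore carried the cassette too. Cells were transfected with 40 nM siRNA before doxycycline, and RNA was taken after 6 days of induction in medium with LIF, chiron, an Alk5 inhibitor and ascorbic acid. Libraries were made from bulk RNA of mixed cells by CEL-Seq2, a method that reads transcripts at their 3′ end and counts molecules by a barcode on each. The replicate number marks the sequenced pool. By the study's account each siRNA was transfected 3 times and the RNA sequencing replicates were independent. Neither the study nor the labels say whether the transfected cells came from separate preparations. The p-values rest on the spread within conditions over all 127 libraries of the fit, not over siPou5f1 and its controls alone. That spread may be technical.

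OCT4 is a POU-domain transcription factor that binds the octamer DNA motif and, together with SOX2 and NANOG, keeps up the gene network of pluripotent cells. In fibroblasts that express the 4 factors, genes of the fibroblast (mesenchymal) program fall first, epithelial genes rise as the cells form compact colonies, and the cell's own pluripotency genes are switched on late. A small interfering RNA is loaded as a guide strand that pairs with a transcript and leads to its cleavage. Bases 2 to 8 of the guide, the seed, can also pair with other transcripts.

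The study pooled 3 siRNAs per target. Those 2 whose sequences were at hand are shown because they define what could be depleted: the guide strand (5′ to 3′, seed in capitals) and its site in the Pou5f1 coding sequence (the bases that pair with the seed in capitals). Each site is 19 bases long.
Guide 71264: uUUCAUGUccugggacucctc
Site of 71264: ggagtcccaggACATGAAa
Guide 71357: gGCAAACUguucuagcucctt
Site of 71357: ggagctagaacAGTTTGCc

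In GENCODE vM21 (GRCm38), Pou5f1 lies on the plus strand of chromosome 17 from 35506018 to 35510772. The site of 71264 spans the junction of exons 1 and 2 of a 1362-nt transcript (chromosome 17, 35506480 to 35506483 and 35509103 to 35509117) and occurs in 1 of 6 annotated Pou5f1 transcripts. The site of 71357 lies in exon 2 (35509129 to 35509147) and occurs in 6 of 6. No transcript of another gene held either whole site. The coding sequence is also what the cassette encodes, so that the siRNAs can pair with the cassette transcript as well as with the cell's own. The cassette is 1 polycistronic transcript whose 3′ end belongs to the vector, and a 3′-end count of Pou5f1 reads the cell's own gene, not the cassette.

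Pou5f1 had 0 counts in each of the 3 siPou5f1 libraries, which together allow up to 13.9 CPM (counts scaled to a common library total, here all counts of the library). It had 1, 0 and 3 counts in the nt libraries, and the highest count in any other siRNA library was 3. At the level of the remaining transfected libraries, matched by replicate, 0.922 counts would have been found in siPou5f1, and the exact 95% interval of the ratio ran from 0 to 4.0. The depletion of the target could not be measured at this depth. Sox2 (0 counts against 1.42 expected), Klf4 (1 against 3.33, ratio 0.3, interval 0.0076 to 1.67) and Myc (1 against 1.5) were as sparse, and none of the 4 passed the filter on low counts.

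Total counts were 46611, 50972 and 117962 in siPou5f1, 75100 to 143156 in nt and 38925 to 83089 in Mock. In composition, replicates 1 and 3 of siPou5f1 stood apart from nt and Mock, and replicate 2 lay close to them. Ribosomal protein genes and their pseudogenes took 12.7%, 8.33% and 13.3% of their counts, against 7.30% to 9.91% in nt, 7.07% to 10.0% in Mock and 4.58% to 12.6% in the other siRNA libraries. Mitochondrially encoded transcripts took 15.1%, 24.1% and 21.3%, against 22.8% to 28.6% in nt and Mock. Replicate 1 was low in mitochondrial counts, and replicate 2 lay within the range of the controls in both shares. All 12 fibroblast markers had counts in siPou5f1. They summed to 788 to 1159 CPM, against 1348 to 1465 in nt and 1243 to 2402 in Mock. Of markers of other cell types, 8 of 10 macrophage and blood genes, 7 of 8 endothelial genes, 7 of 8 skeletal muscle genes and 3 of 8 neural genes were at 0. The neural list summed to 157 to 236 CPM in siPou5f1 and to 141 to 236 in nt and Mock, and the sums of the other 3 lists were at most 39.2 CPM in any siPou5f1 library.

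Markers of pluripotent cells had almost no counts after siPou5f1. The 10 pluripotent markers (Nanog, Pou5f1, Sox2, Zfp42, Dppa5a, Esrrb, Sall4, Tdgf1, Lin28a and Utf1) summed to 1 count over the 3 siPou5f1 libraries, in replicate 2, against 24 counts in nt and 24 in Mock. Without Pou5f1 itself the 9 others gave 0, 1 and 0 counts in siPou5f1, 12, 4 and 4 in nt, and 5, 3, 3, 4 and 4 in the Mock libraries. No siPou5f1 library reached the lowest control library, and relative to depth the ratio was 0.0692 of nt (exact 95% interval 0.00167 to 0.433) and 0.0645 of Mock (0.00155 to 0.406); these intervals cover counting error only. Replicate 1 held 12 of the 20 nt counts. Without replicate 1 the ratio to nt was 0.165 with an interval that includes 1 (0.00372 to 1.23), and that to Mock was 0.0944 (0.00219 to 0.649). Without replicate 2 siPou5f1 had 0 counts (upper bounds 0.344 of nt and 0.376 of Mock), and without replicate 3 the ratios were 0.0994 (0.00237 to 0.64) and 0.124 (0.00294 to 0.804). In bulk RNA, fewer cells with these transcripts and less of them per cell cannot be told apart. Pooled over libraries, siPou5f1 had 4.64 CPM of the 10 markers, the lowest of the 35 transfected conditions, against 7.64 to 14.8 in untransfected cells from Day00 to Day04 and 41.5 at Day06. That rank rests on 1 count, and siPrmt5 came next with 2 counts (7.80 CPM); without replicate 3 siPou5f1 was the second lowest.

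Single pluripotency genes had few counts, and those given here were picked after their counts were seen. Tdgf1, a co-receptor for Nodal, had 0 counts in siPou5f1, 7 in nt and 11 in Mock. Sall4, a zinc finger factor of early pluripotent colonies and a stain of the study's screen, had 1, 7 and 4 counts. Dppa3, an oocyte and germ cell gene, had 0, 5 and 3, and Fgf4, a growth factor of embryonic stem cells, had 1, 5 and 4. Others did not differ in this way: Mybl2 had 5, 6 and 2 counts, Klf5 had 4, 6 and 2, and Dnmt3b had 3, 3 and 1. Nanog and Esrrb had at most 1 count in any of the 3 groups. L1td1, which encodes an RNA-binding protein of embryonic stem cells, was the only 1 of 30 genes on the wider pluripotency list to pass the filter. Its level was 45, 23.7 and 11.3 CPM (for single genes, relative to the tested genes after TMM scaling) in siPou5f1 and 50, 135 and 73.5 in nt. All siPou5f1 libraries lay below all nt libraries, yet the difference did not pass (log2 fold change -1.78 ± 0.81 SE, adjusted p = 0.209).

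**Figure D1:**
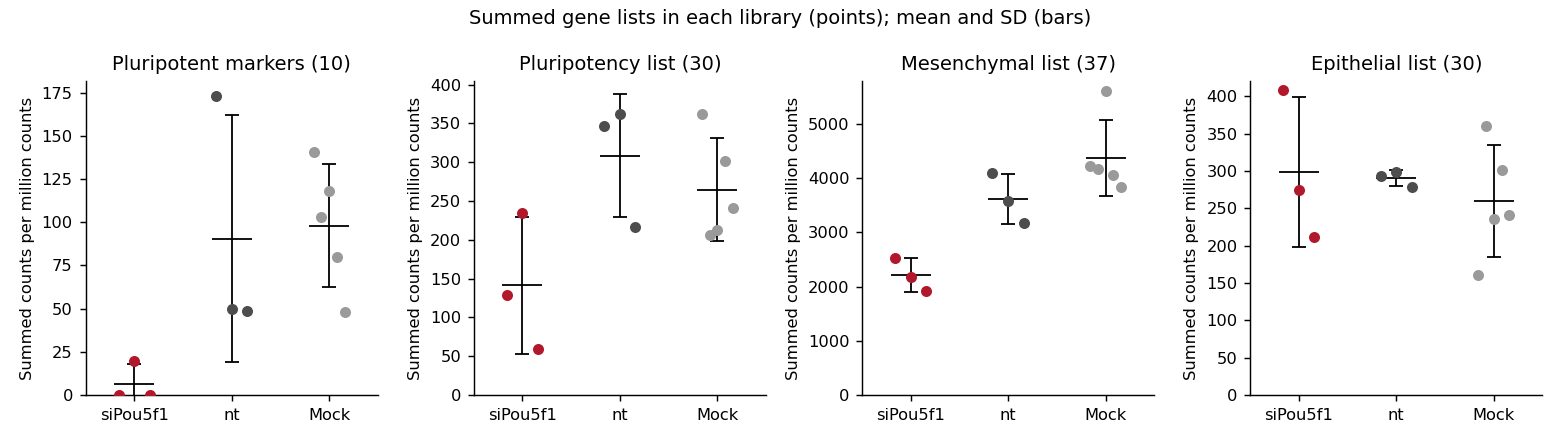
Summed counts of 4 gene lists, in CPM of the library total, in each siPou5f1, nt and Mock library (points), with the mean and SD of each group (bars, cut at 0). The siPou5f1 libraries lie below all controls for the pluripotent markers (0, 19.6 and 0) and the mesenchymal list (at most 2532 against at least 3178), and within or above the range of the controls for the epithelial list (212 to 408 against 161 to 359.7).

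The whole pluripotency list, which also holds genes expressed in other cells, summed to 129, 235 and 59.3 CPM in siPou5f1, to 346, 362 and 217 in nt and to 206 to 362 in Mock. Replicate 2 of siPou5f1 overlapped both controls. Pooled, siPou5f1 (116 CPM) was the third lowest of the 35 conditions, after siPrmt5 (109) and siWhsc1l1 (112) and before siNcor1 (119), so that this level was shared with other knockdowns. The pooled level depended on replicate 3: with it left out of every condition, a setting chosen after the data were seen, siPou5f1 stood at 184 CPM, rank 15 from the lowest, against 354 in nt and 276 in Mock. The pooled ratio was 0.402 to nt (exact interval 0.247 to 0.634) and 0.438 to Mock (0.265 to 0.700). The intervals in this paragraph cover counting error only, not the spread between libraries. The epithelial list did not lie below both controls. It summed to 408, 275 and 212 CPM in siPou5f1, 279 to 299 in nt and 161 to 359.7 in Mock. Replicates 2 and 3 of siPou5f1 lay below all nt libraries, and the ratio to nt was 0.934 (0.657 to 1.32). Single members went both ways. Cdh1, the epithelial cadherin and the other stain of the screen, had 5 counts in siPou5f1, 4 in nt and 4 in Mock. Dsp had 6, 3 and 5, Epcam 4, 8 and 6, and Krt8 6, 10 and 6. Perp, a desmosome gene, held 21 of the list's 58 counts in siPou5f1 and 33 of 86 in nt. It was the only epithelial gene tested and did not pass (log2 fold change -0.15 ± 0.44 SE against nt, adjusted p = 0.904).

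Mesenchymal genes were also lower in siPou5f1, not higher. The mesenchymal and fibroblast list of 37 genes summed to 2532, 2178 and 1916 CPM in siPou5f1, to 4101, 3569 and 3178 in nt, and to 3839 to 5606 in Mock. The 3 siPou5f1 libraries lay below all 8 control libraries. The pooled ratio was 0.600 to nt (exact interval 0.537 to 0.671) and 0.493 to Mock (0.441 to 0.550), with intervals of counting error only. Pooled, siPou5f1 was the lowest of the 35 transfected conditions at 2111 CPM. Untransfected cells went from 18858 at Day00 to 7006 at Day06, so that siPou5f1 lay below Day06 for this list, also with any 1 replicate left out (1995 to 2347 against at least 6687). Its pooled pluripotency list (116) lay within the range of Day00 to Day04 (85.9 to 126.0), but its single libraries (129, 235 and 59.3) did not, and replicate 2 was above Day05 (210.5). Without replicate 3 the pooled level of 184 lay above Day00 to Day04 (82.5 to 146) and below Day05 (212), so that no day can be assigned. Transfected and untransfected cells also differ by the transfection itself: nt stood at 3516 and Mock at 4283.

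**Figure D2:**
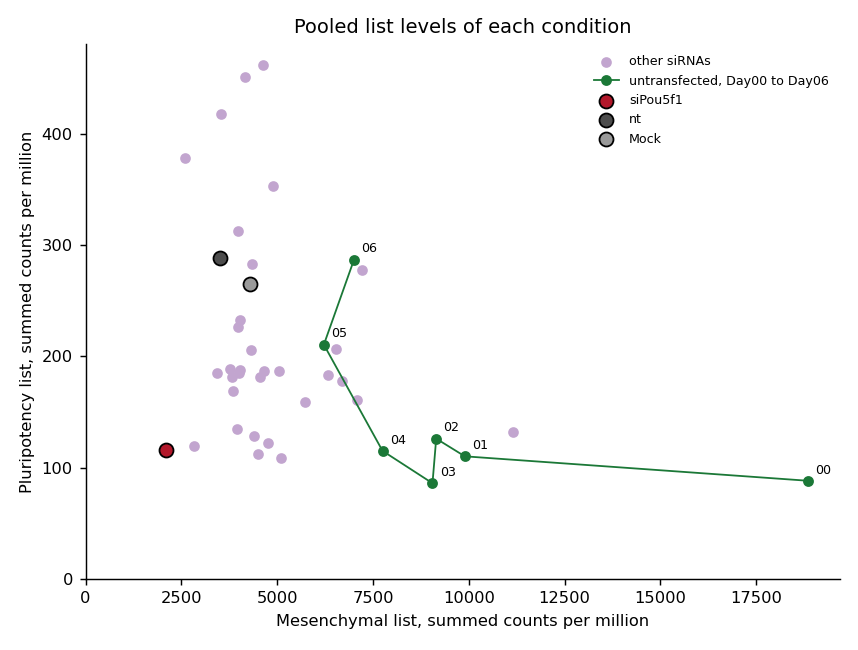
Pooled CPM of the pluripotency list against the mesenchymal list, with 1 point per condition: siPou5f1, nt, Mock, the 32 other siRNAs, and the untransfected days joined by a line. The siPou5f1 point (2111 and 116) is at the lower left, with the lowest mesenchymal level; its pluripotency level pools libraries of 129, 235 and 59.3 and was 184 without replicate 3.

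Over all genes, siPou5f1 differed from nt by 108 genes that were higher (3.58% of 3013 tested) and 66 that were lower (2.19%) in edgeR's quasi-likelihood test at an adjusted p under 0.05. Against Mock, 70 genes were higher (2.32%) and 70 were lower (2.32%). Against the mean of the other siRNAs, 321 were higher (10.7%) and 158 were lower (5.24%). The median log2 fold change of all tested genes was -0.03, 0.00 and 0.01 in the 3 comparisons, which share the siPou5f1 libraries. Their gene lists overlap in part for that reason. Of the 108 genes higher than in nt, 38 (35.2%) were also called against Mock, and of the 66 lower genes 29 (43.9%) were. The nt and Mock libraries differed from each other at 47 genes, 13 of which are among the 108 and 2 among the 66. In simulated counts at these depths, 80% of genes made 4-fold higher and 44% of those made 4-fold lower were called, and 50% and 14% of genes changed 2-fold. Falls were thus called less often than rises of the same size.

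Of the mesenchymal list, 26 genes were tested: 3 were lower against nt, 8 against Mock and 12 against the other siRNAs, with none higher, and their median log2 fold change was -0.65, -0.97 and -0.87. Vim, the intermediate filament protein vimentin, stood at 248, 544 and 180.3 CPM in siPou5f1 and at 716, 658 and 515 in nt. Replicate 2 of siPou5f1 reached into the range of nt but stayed below the 5 Mock libraries (552 to 1018). The difference was -1.06 ± 0.25 (SE, log2) against nt (adjusted p = 0.0022) and -1.17 ± 0.25 against Mock (adjusted p = 0.000535). Without replicate 1 or 3 the call against nt was lost (-0.89, adjusted p = 0.102; -0.78, adjusted p = 0.198).

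Dcn, the matrix proteoglycan decorin, was at 180.1, 118 and 113 CPM against 416, 239 and 335 in nt, with no overlap (log2 fold change -1.32 ± 0.37, adjusted p = 0.0118; without replicate 1, -1.37 with adjusted p = 0.0612, and without replicate 3, -1.08 with adjusted p = 0.269). Col1a2, a chain of type I collagen, was at 67.5, 142 and 192 CPM against 349.7, 284 and 310.4. Its difference of -1.09 ± 0.36 passed narrowly (adjusted p = 0.0466) and no longer did so when any 1 replicate was left out (adjusted p = 0.4, 0.0899 and 0.0831). With replicates 1, 2 and 3 left out in turn, 0, 3 and 1 genes of the list were lower against nt, 3, 3 and 5 against Mock, and 9, 9 and 6 against the other siRNAs. Against nt these counts include Lum, which passed only without replicate 2 (-1.34, adjusted p = 0.0398) or 3 (-1.64, adjusted p = 0.0399) among the replicates left out, so that Vim and Dcn remained without replicate 2 and none of the 3 genes remained without replicate 1 or 3.

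Against Mock the other 5 were Twist2 (log2 fold change -2.27), Prrx1 (-1.46), Lum (-1.34), S100a4 (-1.53) and Mmp2 (-3.35), of which Prrx1 and S100a4 are named because they were called. Twist2 and Prrx1 are transcription factors of mesenchymal cells, Lum is the matrix proteoglycan lumican and S100a4 a calcium-binding protein of fibroblasts. Twist2 was at 45, 23.7 and 22.5 CPM in siPou5f1, 99.9, 59.8 and 81.7 in nt and 59.7 to 231 in Mock. No siPou5f1 library overlapped a control, yet the difference from nt did not pass (-1.43 ± 0.66, adjusted p = 0.219); against Mock the adjusted p was 0.00911 and, without replicate 1 or 2, 0.0908 and 0.183. Mmp2, a matrix metalloproteinase, had 1 count in siPou5f1, 9 in nt and 17 in Mock, so that the ratio of nt to siPou5f1 was 6.5 with an exact interval of 0.901 to 285.0 and that of Mock 13.9 (2.17 to 579.9). Its call against Mock (adjusted p = 0.044) was lost without any 1 replicate (0.198, 0.215 and 0.0759). Cdh11, a cadherin of fibroblasts, had 2, 15 and 14 counts, a ratio of 5.42 for nt with a counting interval of 1.26 to 48.8. The test did not pass against nt (-2.25 ± 0.86, adjusted p = 0.107) or Mock (-2.35 ± 0.86, adjusted p = 0.0949). Cdh11 was lower than in the other siRNAs (-2.80 ± 0.67, adjusted p = 0.000978) in each of the 10 alternative settings.

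Hmga2 fell against each of the 3 references. It encodes an architectural chromatin protein that is high in embryonic and mesenchymal cells. Its level was 248, 568 and 123.9 CPM in siPou5f1, 1016, 1077 and 703 in nt and 943 to 1701 in Mock. All siPou5f1 libraries lay below all control libraries, and siPou5f1 was the lowest of the 35 transfected conditions, whose other siRNAs ranged from 742 to 2056. The fall was 3.28-fold against nt (log2 -1.71 ± 0.27, adjusted p = 2.25e-07), 4.12-fold against Mock (-2.04 ± 0.26, adjusted p = 1.04e-10) and 4.37-fold against the other siRNAs (-2.13 ± 0.22, adjusted p = 1.22e-16). It passed in all 12 alternative settings against nt, with adjusted p up to 0.00967. In untransfected cells Hmga2 went from 2860.1 CPM at Day00 to 1052 at Day06.

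Cald1, the actin-binding protein caldesmon, was at 67.5, 118 and 113 CPM in siPou5f1, 316, 344 and 294 in nt and 223 to 490.3 in Mock. The groups did not overlap. It was lower by -1.61 ± 0.37 (log2) against nt (adjusted p = 0.00106) and by -1.65 ± 0.37 against Mock (adjusted p = 0.00107), and kept its call against nt in 11 of 12 settings. Cald1 was the only 1 of 14 tested smooth muscle contractile genes called against nt or Mock; 4 were lower against the other siRNAs, and the list's medians were -0.40, -0.55 and -0.89. Over the time course Cald1 itself fell from 4422 CPM at Day00 to 409 at Day06. Of 13 cytoskeleton and adhesion genes, Actb was lower against nt (-0.64 ± 0.21, adjusted p = 0.0493), with overlapping libraries and a call lost without replicate 1 (adjusted p = 0.4) or 3 (0.248); against Mock and against the other siRNAs 2 each were lower (list medians -0.64, -0.44 and -0.38).

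**Figure D3:**
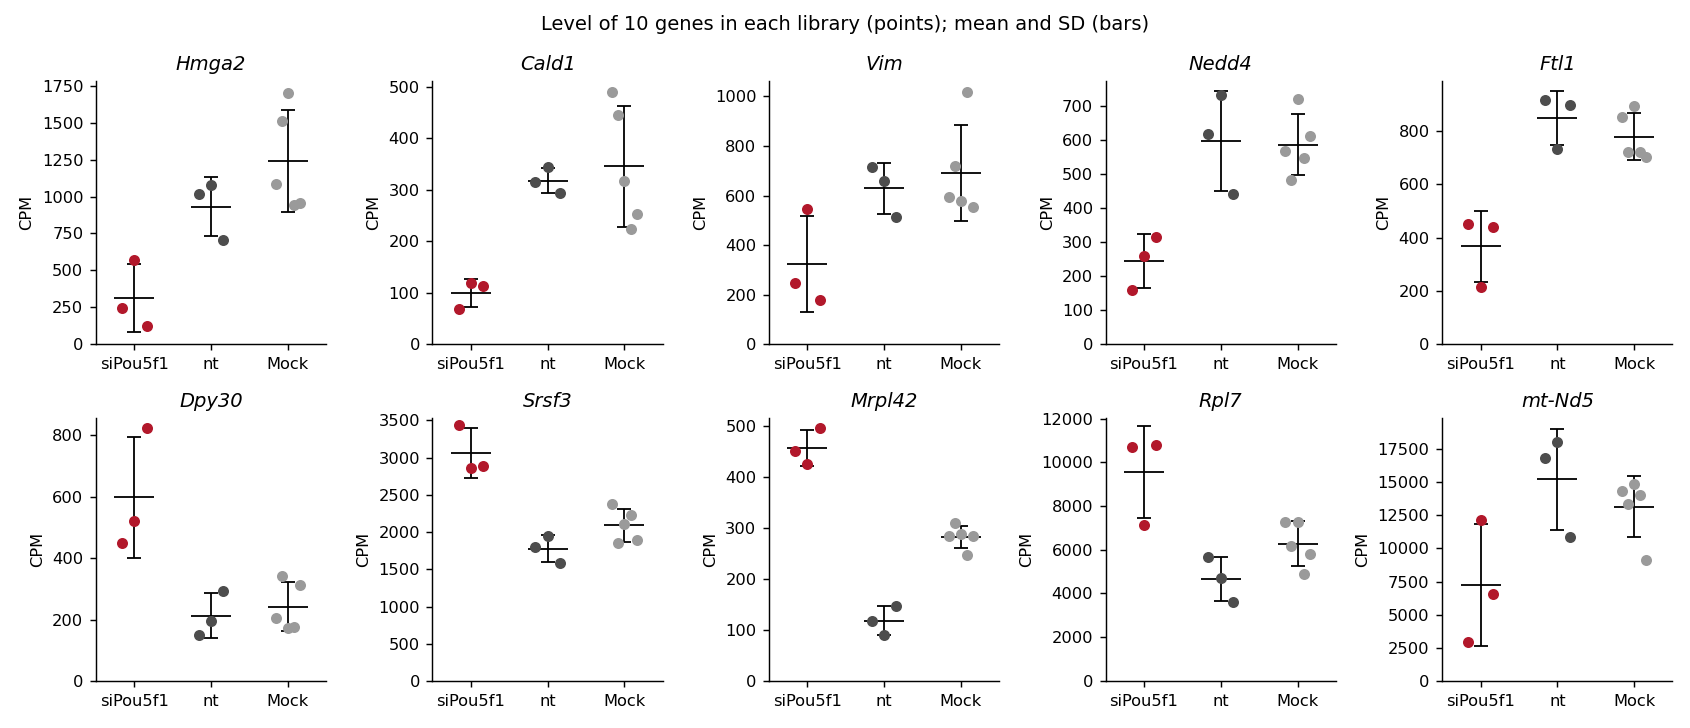
CPM of 10 genes in each siPou5f1, nt and Mock library (points), with the mean and SD of each group (bars). Hmga2, Cald1, Nedd4 and Ftl1 lie lower and Dpy30, Srsf3 and Mrpl42 higher in all 3 siPou5f1 libraries than in every control library, while Vim, Rpl7 and mt-Nd5 overlap a control library.

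Regulators of chromatin and genome folding were lower at single genes. Of 22 tested cohesin, condensin and architecture genes, Ctcf, Wapl and Hmga2 were lower against nt (list median -0.55), and only Hmga2 against Mock (median -0.23). Against the other siRNAs 5 were lower and 1, Hmgb1, was higher (median -0.16). Wapl, which releases cohesin from DNA, was at 0, 94.6 and 45.1 CPM in siPou5f1 and 233, 165 and 204 in nt, with no overlap, and at 51.6 to 273 in Mock, with overlap. It was lower by -2.09 ± 0.49 against nt (adjusted p = 0.00142) and -1.50 ± 0.54 against Mock (adjusted p = 0.0886). The call against nt was lost without replicate 1 (-1.59, adjusted p = 0.111) or 3 (-2.02, adjusted p = 0.0955). Ctcf, the insulator protein, had 3 counts in siPou5f1 and 29 in nt, and its call was lost without replicate 3 (-1.93, adjusted p = 0.365).

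Of 24 chromatin regulators 2 were lower against nt, Atrx and Suz12, and none was called against Mock (medians -0.57 and -0.37). Atrx, a remodeller of heterochromatin, was at 113, 544 and 304 CPM in siPou5f1, 583, 882 and 686 in nt and 288 to 642 in Mock. Its fall of -1.17 ± 0.26 against nt passed (adjusted p = 0.000512) in 11 of 12 settings, and its difference of -0.58 ± 0.27 from Mock did not (adjusted p = 0.22). Suz12, a subunit of Polycomb repressive complex 2, was at 0, 142 and 90.1 CPM against 316, 224 and 237 (-1.63 ± 0.44, adjusted p = 0.00968; without replicate 1, adjusted p = 0.282, and without replicate 3, 0.0608). Dpy30, a subunit of the SET1 and MLL histone H3 lysine methyltransferase complexes, moved the other way. It stood at 450.2, 520.3 and 823 CPM in siPou5f1, 149.9, 194 and 294 in nt and 173 to 343 in Mock. No library overlapped, siPou5f1 was the highest of the 35 conditions, and the rise was 2.77-fold against nt (log2 1.47 ± 0.29, adjusted p = 9.44e-05), 2.45-fold against Mock (1.29 ± 0.29, adjusted p = 0.00107) and 2.90-fold against the other siRNAs (adjusted p = 7.5e-11). It passed against nt in 11 of 12 settings and against the other siRNAs in 10 of 10.

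None of the 16 tested OCT4 partners and cofactors was called in any of the 3 comparisons (medians -0.05, 0.07 and -0.07). Of 16 tested SUMO and ubiquitin genes, Senp6 and Nedd4 were lower and Nedd8, a ubiquitin-like modifier, was higher against nt, the last with a call lost without any 1 replicate. Nedd4, a ubiquitin ligase, was at 158, 260.2 and 315 CPM in siPou5f1, 616, 733 and 441 in nt and 481 to 721 in Mock. The groups did not overlap, and the fall was -1.12 ± 0.27 against nt (adjusted p = 0.00204) and -1.13 ± 0.27 against Mock (adjusted p = 0.0031); without replicate 1 or 2 the adjusted p against nt was 0.0993 and 0.0856. Senp6, a SUMO protease, had 4 counts in siPou5f1, all in replicate 3, and 33 in nt (-2.49 ± 0.66, adjusted p = 0.00784; without replicate 1, 0.0726, and without replicate 2, 0.223).

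The octamer bound by POU factors, ATGCAAAT, was searched on both strands from 250 bases before to 50 bases after the start of each gene with a RefSeq promoter. It was in 1.74% of 32851 promoters and in 1.46% of the 1921 tested genes that have one. Among genes lower than in nt it was in 2 of 47 (4.26%), among genes higher in 0 of 42. The 2 genes are Nedd4 and Spp1, and their windows are shown as the only promoters with these letters among the genes called against nt (GRCm38.p6, plus strand, octamer in capitals).
Spp1, chr5:104435961-104436010: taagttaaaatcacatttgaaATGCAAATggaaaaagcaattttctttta
Nedd4, chr9:72693081-72693130: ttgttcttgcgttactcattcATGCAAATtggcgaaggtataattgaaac

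The octamer begins 210 bases before the start of Spp1 and 196 before that of Nedd4. A match is a description of the letters and says nothing of binding. Spp1 encodes osteopontin, a secreted adhesion protein, and is named after its values were seen. It was at 315, 544 and 529.6 CPM in siPou5f1, 1582, 793 and 923 in nt and 657 to 1099 in Mock, with no overlap (-1.19 ± 0.25 against nt, adjusted p = 0.00027; -0.97 ± 0.25 against Mock, adjusted p = 0.00805). Its call against nt held in 9 of 11 settings.

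The seed sites of the 2 siRNAs, ACATGAA and AGTTTGC, were counted after the coding sequence of each tested gene's transcript. One or both were in 20% of the 50 genes lower than in nt, in 13.5% of the 52 higher genes and in 26.1% of all 2394 tested genes with such sequence. Per kilobase the 3 groups had 0.179, 0.167 and 0.195 sites. Among lower genes the share was 26.7% of 45 against Mock and 28.8% of 139 against the other siRNAs, with 0.175 and 0.179 sites per kilobase. Among higher genes it was 17.9% of 39 and 14.9% of 161, with 0.21 and 0.204 sites per kilobase. The share of genes and the sites per kilobase thus lay on different sides of all tested genes in these 2 comparisons, where the sequence of the lower genes was longer (median 1404 and 1498 nt against 1327).

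Ribosomal protein genes rose in part. Of 200 tested cytoplasmic ribosomal protein genes and pseudogenes, 33 were higher and 1 lower against nt, 12 higher and 0 lower against Mock, and 77 higher and 0 lower against the other siRNAs. Their median log2 fold change was 0.36, 0.33 and 0.48. The list's summed level was 129089.7, 85321 and 135340.2 CPM in siPou5f1, 75259.6 to 101421 in nt and 72484 to 102216 in Mock, so that replicate 2 overlapped the controls and replicates 1 and 3 lay above them. Pooled, siPou5f1 was the highest of the 35 conditions. Against nt the count of higher genes was 18, 25 and 10 without replicate 1, 2 and 3. Many members are processed pseudogenes whose 3′ ends match those of their parent genes, so that counts may be split or shared among copies.

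Rpl7, a protein of the large subunit, was at 10716, 7142 and 10794 CPM in siPou5f1, 5645, 4726 and 3619 in nt and 4890.4 to 7277 in Mock. The siPou5f1 libraries lay above all nt libraries and overlapped Mock in replicate 2. The rise was 1.06 ± 0.14 against nt (adjusted p = 3.31e-10) and 0.62 ± 0.12 against Mock (adjusted p = 0.000187). The pseudogene Rpl7-ps7 had nearly the same levels (11954, 8467 and 11166 CPM) and shares its 3′ end with 8 other annotated genes, so that the level of neither is certain. Rps7, a small-subunit protein with no such copy found, was at 2701, 2176 and 4259 CPM against 1649, 1241 and 1683 in nt (1.00 ± 0.16, adjusted p = 5.8e-07). It overlapped Mock (1738 to 2926, adjusted p = 0.18), and nt and Mock themselves differed there (-0.66 ± 0.15, adjusted p = 0.00508). The calls of Rpl7 and Rps7 against nt each held in 11 of 12 settings and were lost with limma on the deposited log2 values.

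Of 25 mitochondrial ribosomal protein genes, 3 rose against nt (Mrpl42, Mrps33 and Mrpl12), 1 against Mock (Mrpl48) and 9 against the other siRNAs, and none fell (medians 0.47, 0.49 and 0.62). Mrpl42 was at 450.2, 426 and 496 CPM in siPou5f1, 117, 89.7 and 147 in nt and 248 to 309 in Mock. The 3 groups were apart from each other. The rise against nt was 3.74-fold (log2 1.90 ± 0.33, adjusted p = 2.43e-06), that against Mock was 1.62-fold and did not pass (0.69 ± 0.28, adjusted p = 0.147), and nt was below Mock (-1.21 ± 0.34, adjusted p = 0.0381), so that the size of the rise depends on the control; nt was the second lowest of the 35 conditions. Mrps33 was at 270.1, 355 and 372 CPM against 83.3, 89.7 and 212 in nt (1.23 ± 0.34, adjusted p = 0.01) and overlapped Mock (149 to 413). Its call was lost without replicate 1 (adjusted p = 0.1) or 2 (0.157). Mrpl12 (0.94, adjusted p = 0.0305) lost its call without any 1 replicate (0.0726, 0.125 and 0.368) and kept it in 4 of 12 settings.

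Srsf3, a splicing factor of the SR family, was at 3444, 2862 and 2884 CPM in siPou5f1, 1799, 1944 and 1585 in nt and 1854 to 2374 in Mock. It did not overlap either control and was the highest of the 35 conditions (0.80 ± 0.16 against nt, adjusted p = 7.51e-05; 0.59 ± 0.14 against Mock, adjusted p = 0.00468). The call of Srsf3 against nt held with each replicate left out and in 10 of 12 settings. It was lost with the siPou5f1 and nt libraries alone and with limma on the deposited log2 values. A pseudogene, Gm12355, shares its 3′ end. Of 35 tested splicing factor genes 1, 2 and 2 were higher and 2, 0 and 0 were lower against nt, Mock and the other siRNAs (medians -0.10, 0.08 and 0.0), and both lower calls, Hnrnpu and Sf3b1, were lost without any 1 replicate.

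Eif3m, a subunit of translation initiation factor 3, was at 405, 307 and 766 CPM against 167, 224 and 172 in nt (1.51 ± 0.30, adjusted p = 8.77e-05; without replicate 3, 0.88 with adjusted p = 0.319). Its processed pseudogene Gm7658 rose with it (1.67 ± 0.27, adjusted p = 5.73e-07), and the 3′ ends of this pair cannot be told apart. Among 36 translation factor genes 2 were higher and 1 was lower against nt, with a median of 0.00. The lower one was Eef1a1, elongation factor 1 alpha, at 270.1, 166 and 146 CPM against 449.6, 479 and 384 (-1.21 ± 0.30, adjusted p = 0.00275; without replicate 2 and without replicate 3, adjusted p = 0.0763 and 0.126). Ribosome biogenesis genes gave 1, 2 and 8 higher and none lower of 22 (medians 0.26, 0.34 and 0.42).

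**Figure D4:**
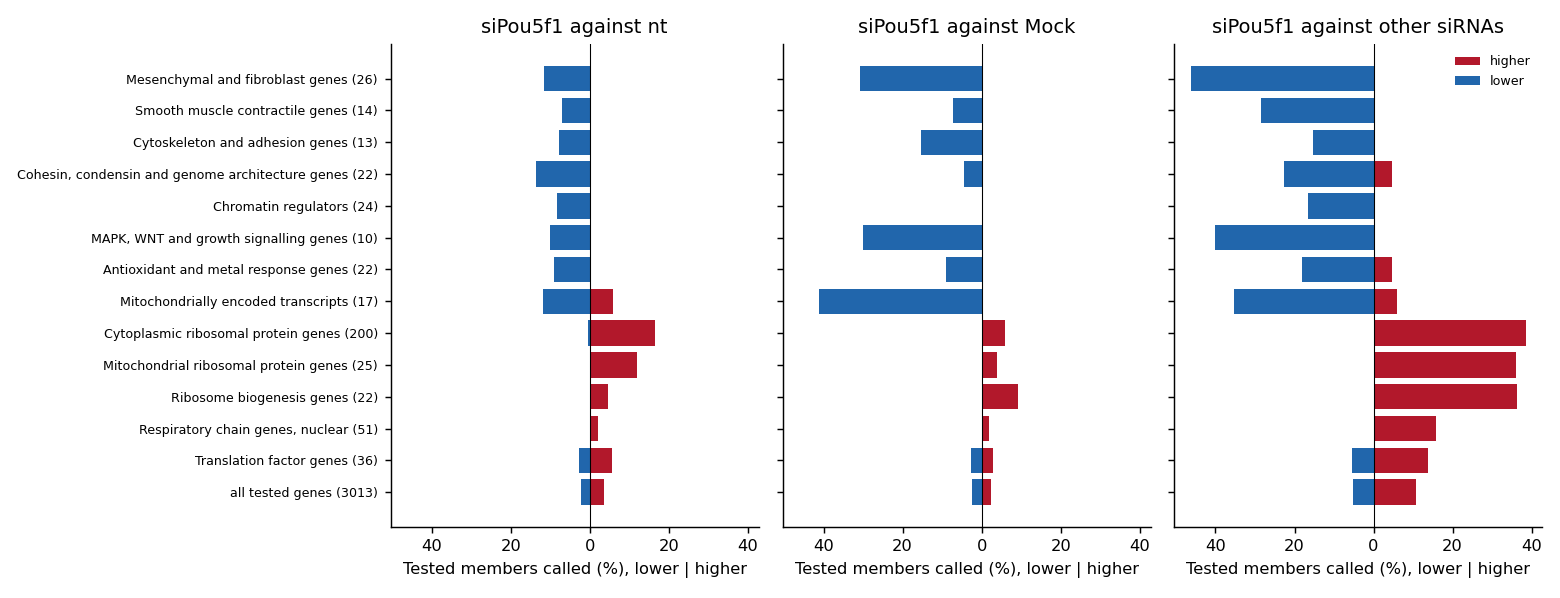
Share of the tested members of 13 gene lists, and of all tested genes, that were called lower (left of 0) or higher (right of 0) in siPou5f1 against nt, Mock and the other siRNAs; the number tested is in parentheses. Mesenchymal genes were called only lower and mitochondrial ribosomal protein genes only higher in the 3 comparisons, against 2.19% lower and 3.58% higher for all genes against nt.

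Some transcripts of the mitochondrial genome fell. Of 17 tested, 1 was higher and 2 were lower against nt, 7 were lower against Mock, and 1 was higher and 6 were lower against the other siRNAs (medians -0.34, -0.41 and -0.29). mt-Nd5, a subunit of respiratory complex I, was at 2972, 12133 and 6557 CPM in siPou5f1, 16803, 18007 and 10873 in nt and 9150.1 to 14845 in Mock. Replicate 1 was far below the others, and replicate 2 overlapped both controls. The fall was 2.08-fold against nt (-1.06 ± 0.14, adjusted p = 6.49e-10) and 1.71-fold against Mock (-0.78 ± 0.13, adjusted p = 5.09e-06). It passed in all 12 settings against nt, at -0.66 without replicate 1. mt-Co3, a subunit of complex IV, was higher than in nt (0.44 ± 0.13, adjusted p = 0.0146) and not called against Mock (-0.12 ± 0.11, adjusted p = 0.637), and nt was below Mock there (-0.56 ± 0.11, adjusted p = 0.000831); the call against nt was lost without replicate 2 (0.14) or 3 (0.304). Of 51 nuclear respiratory chain genes, 1, 1 and 8 were higher and none was lower against nt, Mock and the other siRNAs, with medians of 0.29, 0.28 and 0.35; the 8 became 0 without replicate 3. Of 22 mitochondrial import and chaperone genes, 1, 1 and 4 were higher and none was lower. Over all tested genes 3.58%, 2.32% and 10.7% were higher, in the same order. The 1 call of either list against nt and against Mock lies near that share.

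Ftl1, the ferritin light chain that stores iron, was at 450.2, 213 and 439 CPM in siPou5f1, 916, 733 and 899 in nt and 702 to 894 in Mock. No library overlapped, and siPou5f1 was the lowest of the 35 conditions. The fall was 2.27-fold against nt (-1.18 ± 0.23, adjusted p = 9.1e-05) and 2.13-fold against Mock (-1.09 ± 0.23, adjusted p = 0.000611), and 11 of 12 settings kept the call against nt. Its 3′ end is shared by 11 annotated copies, which makes the level of the single gene uncertain. Of 22 antioxidant and metal response genes 2, 2 and 4 were lower and 0, 0 and 1 were higher (medians -0.29, -0.19 and -0.16). Cth, the enzyme that makes cysteine from cystathionine, rose from 99.9, 74.8 and 114 CPM in nt to 203, 402 and 248 (1.46 ± 0.43, adjusted p = 0.019). It was above every Mock library (77.4 to 172), where the test gave an adjusted p of 0.0569, and its call against nt was lost without replicate 2 (0.295) or 3 (0.0736).

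Other lists changed at few genes. Of 10 tested MAPK, WNT and growth signalling genes, 1, 3 and 4 were lower (medians -0.76, -1.0 and -1.22), with Flrt2, a membrane protein that binds fibroblast growth factor receptors, at 1 count in siPou5f1 against 14 in nt and 18 in Mock (ratio for nt 10.1, interval 1.54 to 428); its call against nt was lost without any 1 replicate (0.224, 0.091 and 0.313). Of 12 p53 targets 1, 2 and 3 were lower and 0, 0 and 1 were higher, and of 4 interferon-stimulated genes 1, 0 and 3 were lower. Of 29 heat shock and ER chaperone genes, 0, 2 and 2 were higher and 1, 1 and 1 were lower. The lower one was Hsp90b1, the ER chaperone GRP94, at 225, 757 and 665 CPM against 866, 1047 and 1078 in nt (-0.83 ± 0.21, adjusted p = 0.00527; without replicate 1, 0.178). Of 27 mitosis genes, 1, 2 and 0 were higher. Of 13 DNA replication genes, 2 were higher and 2 were lower against the other siRNAs and 1 was lower against Mock. No proteasome, glycolysis, sterol and lipid synthesis or RNA interference gene was called against nt or Mock (23, 12, 11 and 2 tested); against the other siRNAs 4 proteasome genes and 2 glycolysis genes were higher and 1 proteasome gene was lower.

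Genes that were higher in siPou5f1 had short transcripts. The longest annotated transcript had a median of 809 nt among genes higher than in nt, 2903 nt among lower genes and 2804 nt among all tested genes with a length. Against Mock it was 1083 nt among higher and 1824 nt among lower genes, so that there the lower genes too were shorter than all tested genes, and against the other siRNAs it was 917 and 3709 nt. With genes split by length into 4 groups of nearly equal size, the group with the shortest transcripts (up to 1202 nt) had a median log2 fold change of 0.27 against nt and 0.23 against Mock, and the group with the longest (from 4569 nt) one of -0.34 and -0.26. Across genes Spearman's rho was -0.309 against nt, -0.252 against Mock and 0.0646 between nt and Mock; genes are not independent replicates. Counts of transcripts under 1000 nt made up 39.1%, 34.6% and 43.3% of the siPou5f1 libraries, 32.2% to 38.5% of nt and 33.6% to 39.6% of Mock. Of the 108 higher genes, 45.4% were pseudogenes, as were 16.7% of the 66 lower genes and 16% of all tested genes. With the trend on length removed within each library, a setting chosen after the data were seen, 86 genes were higher and 56 lower than in nt; 20 ribosomal protein genes were then higher, and Hmga2 (-1.56), Cald1 (-1.36), Vim (-0.97) and Dpy30 (1.30) kept their calls. Genes described above that lost their call against nt include Col1a2 (-0.83, adjusted p = 0.211), Dcn (-1.09, adjusted p = 0.0686), Actb (-0.63, adjusted p = 0.0568), Flrt2 (-2.76, adjusted p = 0.108), Nedd8 (0.52, adjusted p = 0.153), Mrpl12 (0.89, adjusted p = 0.0505), Hnrnpu (-0.66, adjusted p = 0.155), Sf3b1 (-0.60, adjusted p = 0.236) and mt-Co3 (0.27, adjusted p = 0.191), which left Vim as the 1 mesenchymal gene called against nt; Mmp2 lost its call against Mock (-3.33, adjusted p = 0.0589). The part of RNA quality or library making in this relation was not tested.

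**Figure D5:**
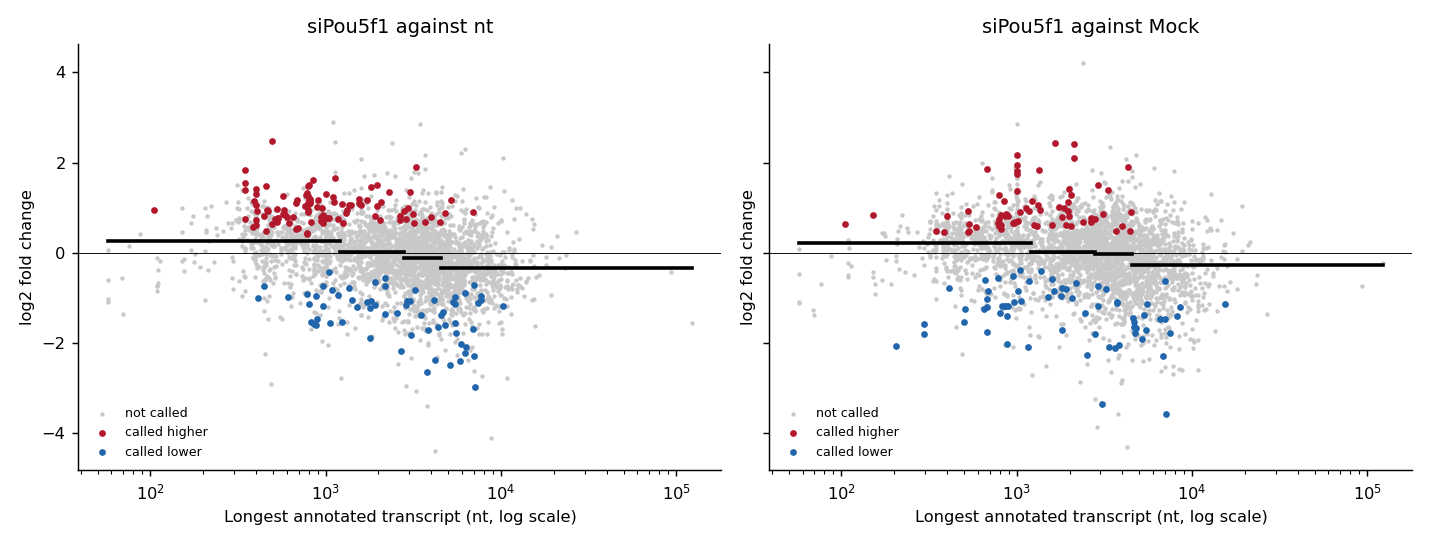
Log2 fold change of siPou5f1 against nt (left) and Mock (right) by the length of the longest annotated transcript, on a log axis, for 2965 tested genes. Black lines give the median of each of 4 groups of genes by length, from 0.27 at the shortest to -0.34 at the longest against nt; called genes are coloured by direction.

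The time course used none of the siPou5f1, nt or Mock libraries. In it, 321 genes were higher (10.7%) and 347 lower (11.5%) at Day06 than at Day00. Of the 108 genes higher in siPou5f1 than in nt, 44 (40.7%) were among those higher at Day06 and 1 was among those lower. Of the 66 genes lower in siPou5f1, 17 (25.8%) were lower and 14 (21.2%) were higher at Day06. Short transcripts were also higher at Day06 (median 0.39 in the group with the shortest transcripts), so that length moves with both comparisons. Dcn is one that rose over the days, from 22.4 CPM at Day00 to 221 at Day06, and was lower in siPou5f1.

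By the number of genes called against nt, siPou5f1 (174) was the third of the 33 siRNAs, after siWdr5 (821) and siBard1 (311) and nearly level with siEp300 (171). Directly against siNcor1, a co-repressor knockdown, Hmga2 (-1.30 ± 0.29, adjusted p = 0.00492), Ftl1 (-1.16 ± 0.24, adjusted p = 0.00141) and mt-Nd5 (-0.57 ± 0.14, adjusted p = 0.0301) were lower in siPou5f1. Other genes described above did not pass against siNcor1, among them Dpy30 (0.45 ± 0.27, adjusted p = 0.679), Mrpl42 (0.30 ± 0.28, adjusted p = 0.835), Eif3m (-0.02 ± 0.26, adjusted p = 0.998), Vim (-0.78 ± 0.27, adjusted p = 0.268) and Cald1 (-1.17 ± 0.41, adjusted p = 0.272). In pooled CPM siNcor1 stood near siPou5f1 for the pluripotency list (119 against 116), and it was the third lowest condition for the mesenchymal list (2839.6 against 2111) and the third highest for ribosomal protein genes (107960.2 against 122160.1). Against siMyc, the knockdown of another cassette factor, Hmga2 (-1.91 ± 0.28, adjusted p = 1.5e-07), Ftl1 (-1.27 ± 0.25, adjusted p = 0.000198), Vim (-1.16 ± 0.27, adjusted p = 0.0035) and Cald1 (-1.71 ± 0.40, adjusted p = 0.0029) were lower and Dpy30 (1.32 ± 0.32, adjusted p = 0.00594) and Rpl7 (0.78 ± 0.14, adjusted p = 4.26e-05) were higher.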

How the data were processed

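Values in the deposited count table are counts of molecules per gene symbol, not normalized. To make them, the authors aligned reads to mm10 by Bowtie2 and counted genes of GENCODE vM13 in the CEL-Seq2 pipeline. The count table holds all 129 libraries, among them a siMtf1 library (7981 counts) and a Mock library (6403 counts) of replicate 3. Both are missing from the second deposited table, for which the authors left out libraries of low quality. That table holds log2 CPM, which the authors scaled by size factors and corrected for batch by regression. Library conditions were read from column names, and the labels give the replicate number.

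Counts were tested with edgeR 4.0.16 in R 4.3.3 (quasi-likelihood, TMM, filterByExpr, a term per condition and the replicate as a block, 127 libraries, 3013 genes, 83 residual degrees of freedom), with Benjamini-Hochberg adjustment at 0.05. DESeq2 1.42.0 and limma 3.58.1 were alternatives. CPM of single genes are on the TMM-scaled total of tested genes and those of list sums on all counts of the library, and SE comes from the F statistic. Ratios of sums are per total counts with exact 95% intervals that cover counting error only. The block is the shared pool named in the labels; deviations from condition means had a median correlation of 0.0548 within a number and -0.0441 between numbers. For replicate 3, 1 of its 2 Mock count columns was paired with the log2 column by correlation (r 0.924 against 0.0172).

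Named genes were the 12 largest fold changes each way against nt and the 5 largest each way in the other comparisons, among called genes of at least 50 CPM with the same sign in each replicate, and up to 4 of each gene list by adjusted p; the text gives a selection of them, and others are said to be picked after their values were seen. The comparison, the gene lists and the marker lists were chosen with earlier results of these data known. Copies share at least 95% of 100 bases or more of the last 300 bases (blastn 2.17.0+). Positions are from GENCODE vM21 and promoters from RefSeq, both on GRCm38. A trend on length was removed with a lowess offset (span 0.3). The fits were tested on simulated counts, which in siPou5f1 against nt called 0.107% of unchanged genes.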

Additional observations from a re-analysis of the deposited data

Results flagged for a closer look

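Among the 5 Mock libraries, 7 named genes and the library total had 1 value far from the rest (its gap to the nearest value over 0.71 of the range); 132 genes were looked at, and chance alone does this in about 1 in 20 groups. The Mock library of replicate 3 had 83089 counts against at most 49873 in the others, and it was the highest for the pseudogene E030024N20Rik (179 CPM, next 51.6) and for Idi1 (284, next 86.5) and the lowest for mt-Nd5 (9150.1, next 13322). The siPou5f1 and nt libraries of replicate 3 were also the deepest of their groups (117962 and 143156 counts). This Mock library is the only tested Mock library of its pool and cannot be told apart from it. In replicate 1, 1 Mock library gave the highest Mdm2 (181, next 115), and the other gave the lowest Tomm5 (34.3, next 74.5) and a Gm7324 value of 0 (next 24.8). A Mock library of replicate 2 gave the highest Slc16a1 (231, next 103). The part of single libraries in the comparison with Mock was not tested beyond leaving out each replicate.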

How the results depend on the processing

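Against nt, 174 genes were called; RLE size factors (180), all libraries with counts (166), nt and Mock together as the control (186), DESeq2 (189) and the length trend removed (142) stayed within 1.5 times of that. The count was 57 with no low-count filter, 60 with no replicate block, 50 with the siPou5f1 and nt libraries alone, 19 with limma on the deposited log2 values, and 80 to 127 with 1 replicate left out. Against Mock (140), it was 49 with no filter, 56 with no block, 78 with limma and 35 to 95 with 1 replicate left out. Against the mean of the other siRNAs (479), it was 227 with no filter, 267 with no block, 94 with limma and 177 to 425 with 1 replicate left out. Some settings have fewer libraries or more genes under adjustment, while the fit without the block keeps the same of both. The cause of the lost calls was not tested. The split of higher and lower calls moved too: limma called 3 higher and 16 lower against nt, and the fit without the block 31 and 29. No call against nt or Mock changed sign in any of these settings; against the other siRNAs 3 did without replicate 1, 1 without replicate 3 and 1 with limma. Of the results of called named genes in all settings, 521 kept their call and 333 lost it, most often with limma (57 of 77) and with no filter (48 of 77). At 46611 to 143156 counts per library in siPou5f1 and nt, genes with few counts, the cassette factors and most pluripotency genes among them, could not be tested singly.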
